A study of Homo sapiens with 4 samples.

Results

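Eph receptors, ephrins, semaphorins, plexins and neuropilins are the proteins by which cells read cues from their neighbours and surroundings. They were measured here as 53 genes, of 18852 genes named on the array. All probes with 1 gene symbol of these families were taken, from EPHA, EPHB, EFNA and EFNB followed by a number to SEMA, PLXNA, PLXNB, PLXNC, PLXND, NRP1 and NRP2. That rule found 83 probes. Of the 53 genes, 34 had 1 probe and 19 had more. They comprised 5 ephrin-A and 3 ephrin-B ligands, 9 EphA and 4 EphB receptors, 20 semaphorins, 9 plexins, 2 neuropilins and PLXNA4-AS2, an antisense transcript that the rule takes in by its name and that is no plexin. Where a gene had several probes, their values were averaged.

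H520 and LK2 are established human lung squamous cell carcinoma cell lines. Each was transfected with a pool of siRNAs against SOX2, the gene of a lineage transcription factor of this cancer, or with scrambled control siRNAs. Total RNA was taken at 48 h. Each of the 4 groups (H520 control, H520 SOX2 siRNA, LK2 control, LK2 SOX2 siRNA) is 1 Illumina HumanHT-12 v3 array, so the number of arrays limits every value. The siRNAs were pooled, so no single siRNA sequence can be followed. In such bulk RNA, fewer cells with a transcript and less of it per cell cannot be told apart.

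Ephrins are membrane-bound ligands. The A class is held by a lipid anchor and the B class spans the membrane, and both signal into the Eph-bearing cell and back into their own. Semaphorins are secreted (class 3) or membrane-bound ligands of plexin receptors, with neuropilins as co-receptors for most of class 3. These systems steer growing axons and vessels, and in epithelial and tumour cells they act on adhesion, cell spacing and migration through small GTPases.

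Values are the authors' log2 values, centred for each probe, so they show differences between arrays and no level. A change is the log2 value with SOX2 siRNA minus that with control siRNA. Within 1 line it rests on 1 pair of arrays and has no test. Across both lines it was tested with limma, with the line as a block, and ± is the standard error of that fit (n = 2 lines). SOX2 itself was lower in both lines, with changes of -0.66 in H520 and -2.11 in LK2 (-1.38 ± 0.31 over both lines, limma adjusted p = 0.33). Its 2 probes stood at 63.2% and 63.8% of control in H520, and at 26.9% and 19.9% in LK2. Of 14 squamous markers listed, 10 were measured, but centred values cannot show whether a marker is present. Besides SOX2, 1 of them passed 1.5-fold in a line: PERP, a desmosome-associated protein of stratified epithelia, at -0.80 in H520 and 0.10 in LK2. All 9 immune, 8 fibroblast and 6 endothelial markers measured were within 1.5-fold of control in both lines. Of 7 neuroendocrine markers, 3 were at least 1.5-fold lower in H520 with SOX2 siRNA, against 1.07% of all genes. They were CHGB (-0.81 in H520 and -0.24 in LK2), INSM1 (-0.76 and -0.18) and DDC (-0.62 and 0.19). By direction, 3 of the 7 were lower in both lines and 3 went opposite ways. The remaining 1, SYP, was higher in both, at 0.22 and 0.31. Whether these markers or PERP bear on the H520 values below was not tested.

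The genes with the largest changes were a ligand and its receptor of the ephrin-A system, EFNA1 and EPHA2, and the secreted semaphorin SEMA3C, all higher with SOX2 siRNA in both lines. The receptor EPHA4 was lower, mainly in H520. These were the 4 members that differed by at least 1.5-fold in a line. The DNA around their transcription starts is shown for the 3 higher genes, because the perturbed gene encodes a DNA-binding protein and these were higher in both lines. Each window runs from 250 bases before to 50 bases after a start in RefSeq (GRCh38.p14), and 46 of the 53 genes had a window.

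Capitals mark the SOX-type core motifs ACAAAG or ACAATG on either strand.
EFNA1, chr1:155127626-155127925, plus strand: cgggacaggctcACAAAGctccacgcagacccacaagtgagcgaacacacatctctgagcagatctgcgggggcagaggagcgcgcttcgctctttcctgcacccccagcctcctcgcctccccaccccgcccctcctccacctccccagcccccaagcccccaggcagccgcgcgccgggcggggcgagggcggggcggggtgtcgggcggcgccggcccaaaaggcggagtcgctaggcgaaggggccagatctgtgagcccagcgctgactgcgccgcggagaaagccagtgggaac
EPHA2, chr1:16156020-16156319, minus strand: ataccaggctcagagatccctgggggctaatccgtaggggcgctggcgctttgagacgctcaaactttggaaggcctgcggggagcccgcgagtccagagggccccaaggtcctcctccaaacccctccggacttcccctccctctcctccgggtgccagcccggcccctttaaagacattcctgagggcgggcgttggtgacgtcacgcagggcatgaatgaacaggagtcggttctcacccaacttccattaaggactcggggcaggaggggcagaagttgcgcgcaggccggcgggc
SEMA3C, upstream window, chr7:80922340-80922639, minus strand: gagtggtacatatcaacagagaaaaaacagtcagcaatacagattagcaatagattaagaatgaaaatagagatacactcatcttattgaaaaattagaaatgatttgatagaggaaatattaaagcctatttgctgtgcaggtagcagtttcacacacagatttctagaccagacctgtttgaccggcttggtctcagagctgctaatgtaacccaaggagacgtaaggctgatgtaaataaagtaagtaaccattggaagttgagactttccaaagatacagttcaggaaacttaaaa
SEMA3C, downstream window, chr7:80919002-80919301, minus strand: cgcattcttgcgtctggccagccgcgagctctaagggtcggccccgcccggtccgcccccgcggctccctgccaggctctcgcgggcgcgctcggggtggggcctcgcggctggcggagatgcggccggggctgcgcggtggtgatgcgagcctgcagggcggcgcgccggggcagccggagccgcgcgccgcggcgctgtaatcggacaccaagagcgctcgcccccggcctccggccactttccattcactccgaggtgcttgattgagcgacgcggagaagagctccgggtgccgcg

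The EFNA1 window held 1 match, near its upstream end, and the windows of EPHA2 and SEMA3C held 0. Of the 2 windows of EPHA4, 1 held a match. Over all member windows the share was 14 of 72 (19.4%), against 24.5% of all 35116 windows in the table, so a match was no more frequent among the members. The median GC content was 65% in member windows and 58.7% in all windows, and the shares were not adjusted for it. A match is a string of letters, not a bound site. The GC content of the printed windows was 71.7% for EFNA1 and 64.3% for EPHA2, and 36.0% and 75.7% for the windows of SEMA3C.

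EFNA1 is a main ligand of EPHA2. Its values were 0.05 in H520 control, 0.33 with SOX2 siRNA, -0.94 in LK2 control and -0.13 with SOX2 siRNA. EFNA1 was thus lowest in LK2 control, and the siRNA array was higher than its control in both lines, by 0.28 and 0.81. Over both lines the change was 0.54 ± 0.15 (limma, adjusted p = 0.384). Its 2 probes disagreed in size. One read 0.51 in H520 and 1.30 in LK2, the other 0.04 and 0.32.

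EPHA2, a receptor tyrosine kinase common in epithelial tumours, stood at -0.30 in H520 control and 0.32 with SOX2 siRNA. In LK2 it stood at -0.48 and -0.07. Both siRNA arrays were above both control arrays, with changes of 0.63 (1.54-fold) in H520 and 0.41 in LK2. Its change over both lines, 0.52 ± 0.11, had the lowest adjusted p of the family (limma, 0.298).

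The other ephrins were close to control. EFNA2, EFNA3, EFNA4 and EFNA5 lay between -0.16 and 0.15 in both lines. Among the B class, EFNB2, the partner of EPHB4 at vessel borders, was at 0.03 in H520 and 0.23 in LK2. EFNB3 was at -0.21 and 0.26, and EFNB1 at -0.03 and 0.13.

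EPHA4, a receptor that binds ephrins of both classes, was at 0.05 in H520 control and -0.60 with SOX2 siRNA, and at 4.07 and 3.93 in LK2. It was lower by a log2 change of -0.66 (1.58-fold) in H520 and -0.14 in LK2, while the lines lay far apart. EPHA4 had 1 probe, and its larger change was in the line with the lower values, where signal over background is unknown. The change over both lines was -0.40 ± 0.14 (limma, adjusted p = 0.533). EPHA1 went opposite ways, at -0.50 in H520 and 0.37 in LK2, a difference between lines that was not tested. EPHB4 was higher in both, at 0.21 and 0.29. EPHB6, a receptor without kinase activity, was at 0.30 in H520 and -0.01 in LK2, and EPHB3 at 0.07 and -0.11. EPHA3, EPHA5, EPHA6, EPHA7, EPHA8, EPHA10 and EPHB1 were all between -0.16 and 0.22.

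**Figure D1:**
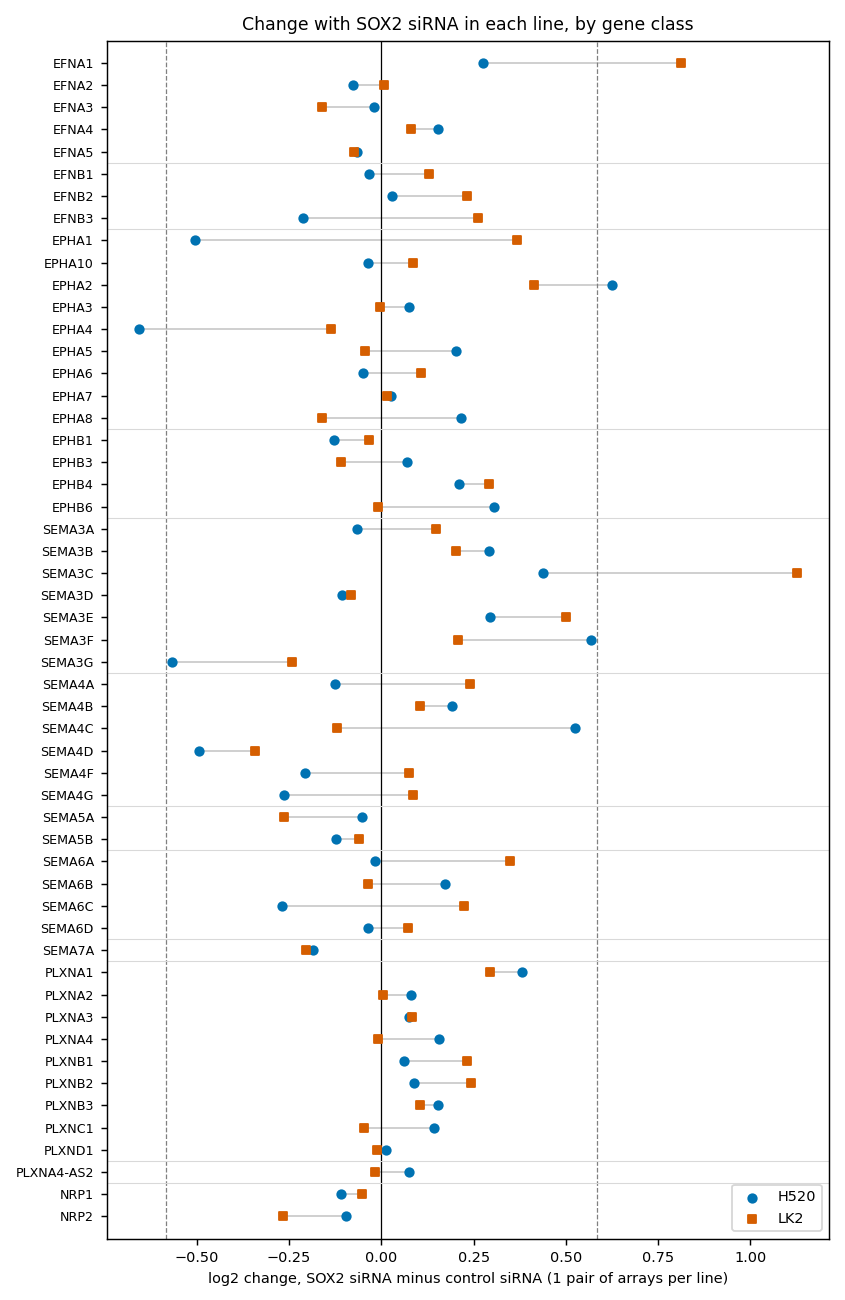
Log2 change with SOX2 siRNA (x axis) for each of the 53 genes (y axis, grouped by class), with H520 as circles and LK2 as squares, 1 pair of arrays each; dashed lines mark 1.5-fold. SEMA3C and EFNA1 in LK2 and EPHA2 and EPHA4 in H520 lie past a dashed line, and the plexins lie near or above 0.

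SEMA3C, a secreted ligand that signals through neuropilins and plexins, had the largest change of the family. Its values were -0.50 in H520 control and -0.06 with SOX2 siRNA, then 0.06 in LK2 control and 1.19 with SOX2 siRNA. The LK2 siRNA array stood above the other 3 arrays. The change was 0.44 in H520 and 1.12 (2.18-fold) in LK2, or 0.78 ± 0.17 over both lines (limma, adjusted p = 0.304).

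SEMA3E, which binds PLXND1 without a neuropilin, followed with 0.30 in H520 and 0.50 in LK2. Here too the probes differed: one read 0.52 and 1.01, while the other read 0.07 and -0.00. SEMA3F, a ligand of NRP2, was at -0.28 in H520 control and 0.28 with SOX2 siRNA, and at -1.67 and -1.46 in LK2. It was higher by 0.57 in H520, just under 1.5-fold, and by 0.21 in LK2. SEMA3B was higher by 0.29 and 0.20. SEMA3G was lower in both lines, from 0.10 to -0.47 in H520 and from -0.10 to -0.34 in LK2. SEMA3A, the founding repulsive ligand of NRP1, was at -0.07 and 0.15, and SEMA3D at -0.11 and -0.08. Of its 7 genes, class 3 thus held 4 higher and 2 lower in both lines, against 27% each way of all genes. Its median change was 0.29 in H520 and 0.20 in LK2. For all 20 semaphorins together the medians were -0.06 and 0.08. Over all genes the medians were 0.00 and -0.00.

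Among membrane-bound semaphorins, SEMA4D, a ligand of PLXNB1 first known from lymphocytes, was lower in both lines. It went from -0.19 to -0.68 in H520 and from 0.53 to 0.19 in LK2. The change over both lines was -0.42 ± 0.10 (limma, adjusted p = 0.363), the lowest of the family. SEMA4C, a ligand of PLXNB2, was at 0.52 in H520 and -0.12 in LK2. SEMA4A was at -0.13 and 0.24, SEMA4B at 0.19 and 0.11, SEMA4F at -0.21 and 0.08, and SEMA4G at -0.26 and 0.08. SEMA5A (-0.05 and -0.26), SEMA5B (-0.12 and -0.06) and SEMA7A, the lipid-anchored ligand of PLXNC1 (-0.18 and -0.20), were lower in both lines by less than 1.5-fold. The 4 class 6 genes went opposite ways in the lines: SEMA6A at -0.02 and 0.35, SEMA6B at 0.17 and -0.04, SEMA6C at -0.27 and 0.22, and SEMA6D at -0.04 and 0.07.

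**Figure D2:**
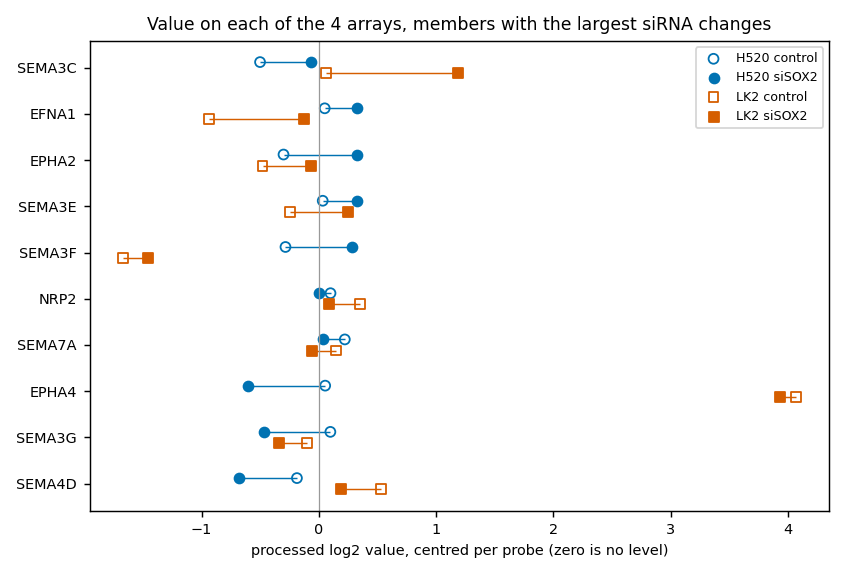
Processed log2 value (x axis, centred per probe, so 0 is no level) on each of the 4 arrays for the 10 genes with the largest changes in either direction over both lines; open symbols are control arrays and filled ones SOX2 siRNA arrays, circles H520 and squares LK2. Lines join the arrays of 1 cell line. EPHA4, SEMA3F and SEMA4D show cell lines further apart than treated and control arrays.

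Plexins, the semaphorin receptors, were close to control. All 9 were above 0 in H520, from 0.01 to 0.38, and 6 of the 9 in LK2, where they ran from -0.05 to 0.29. Of all 18852 genes, 9556 were above 0 in H520 and 9286 in LK2. The median absolute change of the plexins was 0.09 in H520 and 0.08 in LK2, against 0.11 and 0.12 over all genes. PLXNA1, a receptor partner of neuropilins, stood out: -0.37 in H520 control and 0.02 with SOX2 siRNA, and -0.31 and -0.02 in LK2. Both PLXNA1 siRNA arrays were above both controls, with changes of 0.38 and 0.29 (0.34 ± 0.10 over both lines, limma adjusted p = 0.444). PLXNB2 was at 0.09 and 0.24 and PLXNB1 at 0.06 and 0.23. PLXND1 was at 0.01 and -0.01. The neuropilins were slightly lower in both lines, NRP1 at -0.11 and -0.05 and NRP2 at -0.10 and -0.27. PLXNA4-AS2 was at 0.08 and -0.02, and PLXNA4 at 0.16 and -0.01.

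Over the 53 genes, 0 were called higher or lower at an adjusted p under 0.05 over all genes (limma). Of all 18852 genes, 0.0053% were called higher and 0% lower, so calls were rare throughout. At an unadjusted p under 0.05 there were 11 members (20.8%), against 8.4% of all genes. Of these, 8 were higher (SEMA3C, EFNA1, EPHA2, SEMA3E, SEMA3F, PLXNA1, EPHB4 and SEMA3B) and 3 lower (SEMA4D, SEMA3G and EPHA4). The genes were chosen with earlier results known, so that share was not tested. In H520, 1 member was at least 1.5-fold higher (0.806% of all genes) and 1 lower (1.07% of all genes). In LK2, 2 were higher (1.9% of all genes) and 0 lower (1.3% of all genes). In 17 genes (32.1%) both lines were above control and in 12 (22.6%) both were below, against 27% and 27% of all genes. The remaining 24 went opposite ways. The median absolute change was 0.14 in H520 and 0.12 in LK2, against 0.11 and 0.12 over all genes.

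**Figure D3:**
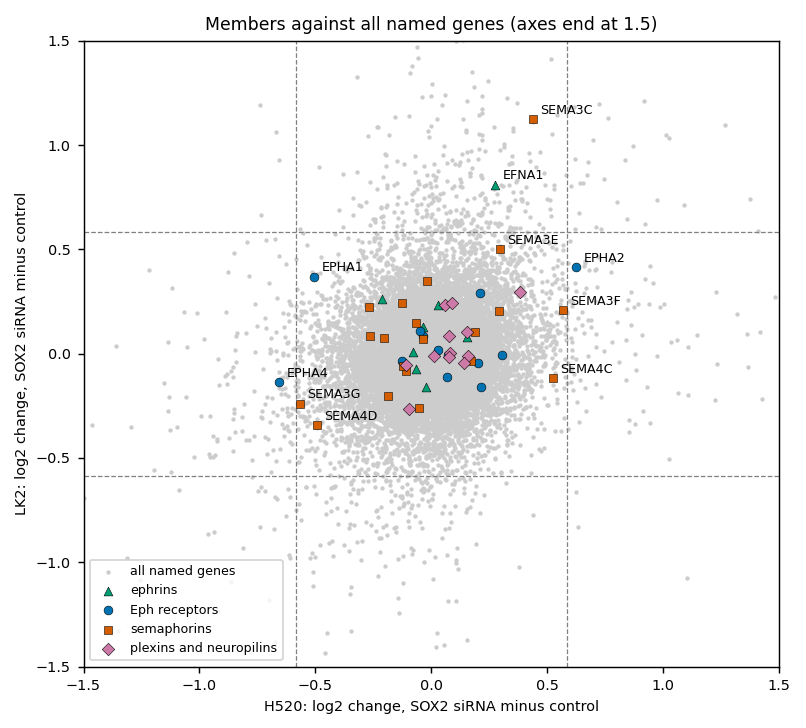
Log2 change with SOX2 siRNA in H520 (x axis) against LK2 (y axis) for all 18852 named genes (grey) and the 53 members by family; dashed lines mark 1.5-fold, and grey points past 1.5 on an axis are not drawn. Most members lie within the grey cloud, with SEMA3C, EFNA1 and EPHA2 at upper right and EPHA4, SEMA3G and SEMA4D at lower left.

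A few members differed between the lines by far more than any did with SOX2 siRNA, while the median absolute difference on the control arrays was 0.179, against 0.202 over all genes. On these arrays, SEMA6A, a transmembrane ligand of PLXNA2 and PLXNA4, was higher in LK2 by 4.79 on the log2 scale (27.6-fold). EPHA4 was higher by 4.01 (16.1-fold), EFNB3 by 1.74 (3.35-fold) and SEMA5A by 1.52 (2.87-fold). SEMA3F was the gene higher in H520 by most, at -1.38 (2.61-fold), followed by EFNA1 at -0.99. At least 2-fold, 4 members were higher in LK2 (7.55%, against 3.85% of all genes) and 1 in H520 (1.89%, against 3.24% of all genes). In the middle, 42 of the 53 genes were within 1.5-fold.

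The SOX2 siRNA arrays gave a second pair, and limma was fitted over all 4 arrays with the siRNA as a block. Its errors combine how far the 2 pairs disagreed for a gene with a spread taken from all genes. The spread from all genes weighs more, with 5.19 prior against 1 residual degrees of freedom. An error near 0.10 is thus mostly that shared spread. SEMA6A read -0.57 and -0.58 in H520 and 4.22 and 4.57 in LK2, control first, so the lines did not overlap. Its difference was 4.97 ± 0.12 (limma, adjusted p = 1.66e-05). EPHA4 followed with 4.27 ± 0.14 (limma, adjusted p = 3.08e-05).

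EFNB3, a transmembrane ligand known from midline guidance of axons, read -0.27 and -0.49 in H520 and 1.47 and 1.73 in LK2. Its line difference was 1.98 ± 0.14 (limma, adjusted p = 0.000268). SEMA5A, a ligand of PLXNB3, read -0.20 and -0.25 against 1.32 and 1.06, and both of its probes were higher in LK2. SEMA3A (1.06 ± 0.11), SEMA3C (0.91 ± 0.17), EFNB2 (0.89 ± 0.11), SEMA4D (0.79 ± 0.10) and EPHA1 (0.74 ± 0.20) were also called higher in LK2. The EPHA1 difference was 0.31 on controls and 1.18 on siRNA arrays, since its siRNA changes had opposite signs.

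Higher in H520 were SEMA3F (-1.56 ± 0.12), EFNA1 (-0.72 ± 0.15), EPHB3 (-0.68 ± 0.11), PLXNA3 (-0.50 ± 0.10) and PLXNB2 (-0.40 ± 0.10). PLXNA3 read -0.04 and 0.04 in H520 and -0.54 and -0.46 in LK2. EPHB3, a receptor of B class ephrins with a role in placing cells in the gut crypt, read 0.16 and 0.23 against -0.43 and -0.54. EPHA2, the receptor of EFNA1, was not called between lines (-0.28 ± 0.11, limma adjusted p = 0.11).

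In all, 9 members were called higher in LK2 (17.0%, against 14% of all genes) and 5 in H520 (9.43%, against 13.4% of all genes). The family was thus called between lines about as often as other genes. Without the siRNA as a block EFNA1 (adjusted p = 0.125), EPHA1 (0.0556), PLXNB2 (0.0638) and SEMA3C (0.154) lost their call, and EPHA1 (0.0751) also with robust moderation. PLXNB2 (0.0505) lost it when genes with an SD over the arrays below the median were left out.

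**Figure D4:**
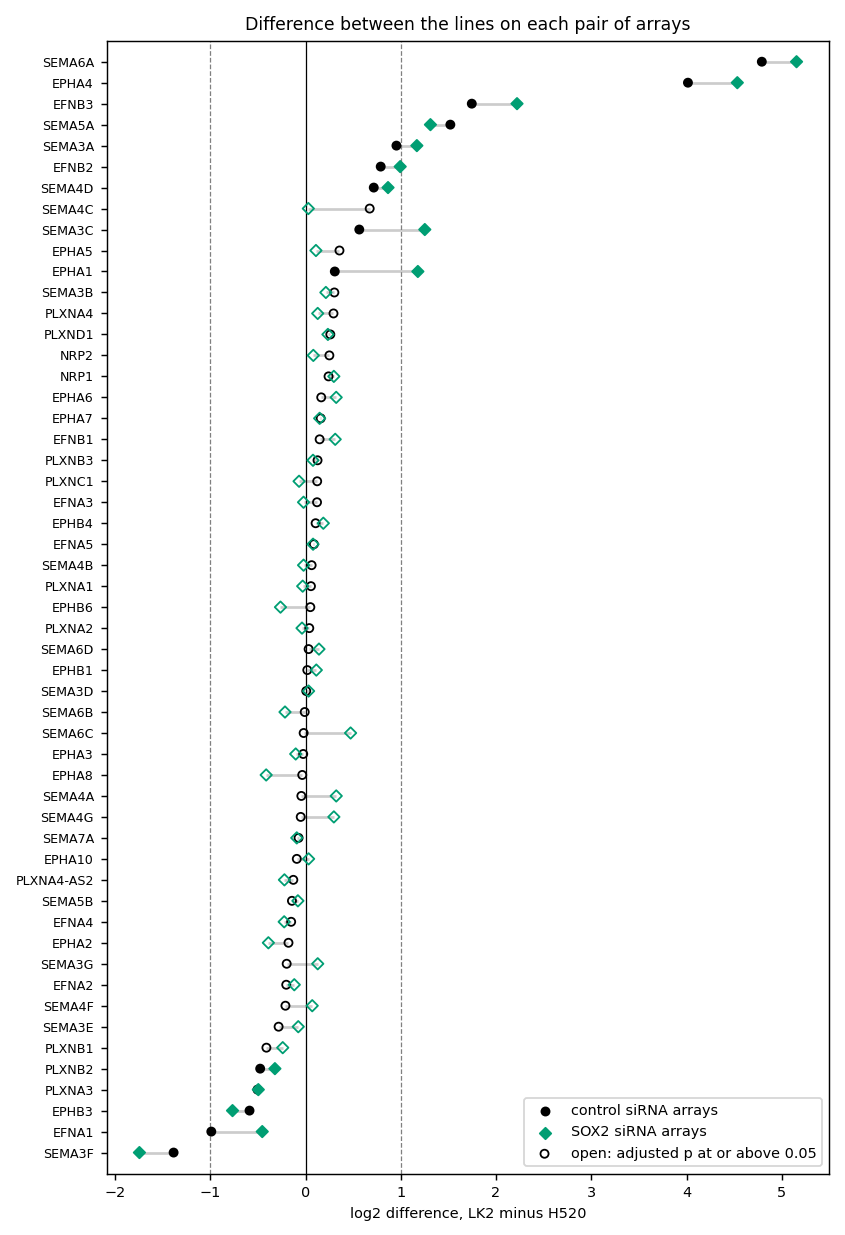
Log2 difference, LK2 minus H520 (x axis), for the 53 genes ordered by their value on the control arrays (circles), with the SOX2 siRNA arrays as diamonds; filled symbols mark genes called by limma over all 4 arrays, and dashed lines mark 2-fold. SEMA6A and EPHA4 stand far to the right on both pairs, and SEMA3F lies furthest left.

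Probes of the same gene did not always read alike, and the mean of probes hides this. NRP2 had 4 probes, and on the controls 1 was higher in LK2 by 1.39 while the others read -0.38, -0.13 and 0.12. With SOX2 siRNA the same probe read -0.39 in H520 and -0.43 in LK2, the lowest of the 4 in each line. For EPHA6, 1 of 6 probes read 1.80 on the controls and the others lay between -0.34 and 0.12. For EFNA1 the probes read -1.63 and -0.35, and for PLXNB2 -0.83 and -0.13. The SEMA3E probes even differed in sign between the lines, at -0.87 and 0.30. The median range over probes of a gene on the controls was 0.300 for the 19 members with more than 1 probe and 0.335 over all 6131 such genes.

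**Figure D5:**
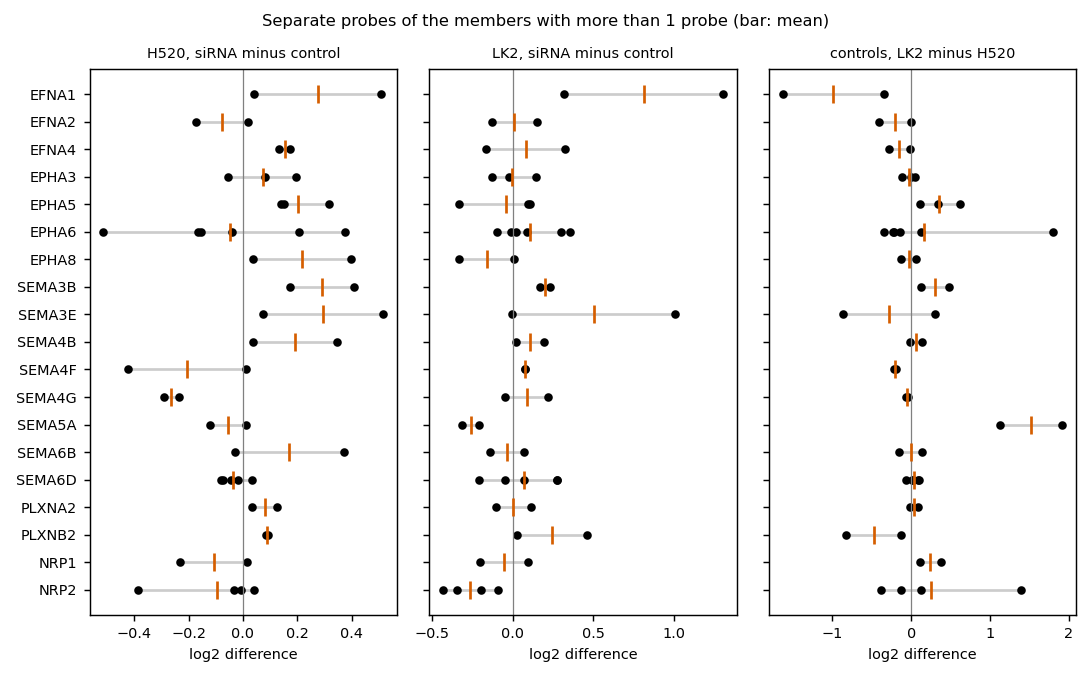
Log2 differences (x axes) by separate probe (points) and their mean (bars) for the 19 members with more than 1 probe, in H520 and LK2 with SOX2 siRNA and between the control arrays. Single probes of EPHA6, NRP2 and EFNA1 stand apart from the others of their gene on the controls.

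Genes that act beside or below these receptors were read from lists of other components. Of 66 measured genes of signalling and processing below Eph receptors and plexins, 0 were called with SOX2 siRNA (limma), and 7 had an unadjusted p under 0.05 (10.6%, near the 8.4% of all genes). The median change was 0.01 in H520 and -0.04 in LK2. Past 1.5-fold in LK2 were DPYSL4, a collapsin response mediator of semaphorin signals (0.34 in H520 and 0.91 in LK2), FYN, a kinase (-0.13 and 0.59), and NRCAM, an adhesion molecule of the semaphorin receptor complex (-0.32 and -0.90). The largest changes beyond these were those of SH3BP1 (0.37 and 0.54), RRAS, a GTPase on which plexins act (0.32 and 0.56), DPYSL3 (-0.10 and -0.53) and FARP1 (-0.43 and -0.17). Between the control arrays, CDK5R1 (1.07), MICAL1 (0.96), an oxidase that binds plexins, and MET (0.93), a receptor kinase that pairs with plexin-B, were highest in LK2. GSK3B (-1.17), RRAS (-0.83) and LYN (-0.65) were highest in H520. All 6 were called over the 4 arrays. In the list 10 genes (15.2%) were called higher in LK2, near the 14% of all genes, and 3 (4.55%) in H520, against 13.4%.

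Of 29 genes of the other guidance systems (Slit and Robo, netrin, RGM and FLRT genes), 0 were called with SOX2 siRNA (limma) and 3 had an unadjusted p under 0.05 (10.3%, near the 8.4% of all genes). UNC5B, a netrin receptor, was at 0.05 in H520 and 1.19 in LK2, and FLRT2, a ligand of UNC5 receptors, at 0.09 and 0.79. FLRT3 was at 0.49 and 0.19, SRGAP1 at -0.05 and -0.53, ROBO3 at -0.58 and 0.17, and DCC, another netrin receptor, at -0.16 and -0.18. NEO1, a receptor of RGM proteins, was -1.51 on the control arrays, ROBO3 -1.43 and SLIT3 -1.27, all higher in H520 and called over the 4 arrays. SRGAP1 (0.67), RGMB (0.62) and FLRT3 (0.46) were highest in LK2, and only RGMB of these was called. In the list 3 genes (10.3%) were called higher in LK2 and 4 (13.8%) in H520, against 14% and 13.4% of all genes.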

How the data were processed

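The authors deposited log2 values for 48801 probes on 4 Illumina arrays. How they were background-corrected and normalized, and with which tool, is not given in the sources used here. The mean of the 4 column means was 0.00475, and the column medians ran from -0.000497 to 0.00118. The values were taken as normalized between arrays and centred per probe. The zero need not be the middle of these 4 arrays, since SEMA6A read -0.57, -0.58, 4.22 and 4.57. What it was set on is not known here. A second deposited table held intensities in 4 columns whose names match no sample. They were given to no sample and used only to find the log base. Differences between its log2 columns were set against differences between processed columns. The 4 pairings with the highest correlation had slopes of 0.965 to 0.978 over strongly differing probes. Here log2 values give 1 and natural logs 0.693.

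Symbols came from the platform annotation. Of the probes 28096 had 1 symbol, 13 several and 20692 were not listed. All 83 member probes matched RefSeq by Entrez identifier. EPHB2 was not analysed here. Genes were tested with limma 3.58.1 in R 4.3.3 (line and siRNA as terms, 1 residual and 5.19 prior degrees of freedom, two-sided, Benjamini-Hochberg over 18852 genes). The pairing by line comes from the labels, which leave unsaid whether the arrays are of separate cultures. With 1 array per group, the residual is how far the lines disagreed on the siRNA change. It includes any true difference between the lines in that change. The p-values thus do not measure the spread between repeated cultures or arrays of a group. The fit was tested on simulated data. No detection p-values were used, so no filter on dim probes could be set.

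Members and lists were chosen with earlier results of these data known. Named in full were members past 1.5-fold in a line, the 5 highest and 5 lowest changes over both lines, the 8 highest and 8 lowest differences on controls, and called members. From the lists, genes past 1.5-fold and the 3 most extreme each way were named. Alternatives were separate probes, the most variable probe, genes above the median SD over arrays, median centring, robust moderation, no block and other fold thresholds.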

Additional observations from a re-analysis of the deposited data

How the results depend on the processing

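No member was called for the siRNA under any of the 6 alternatives. Over all genes the count of calls was 1, against 51 with probes tested separately, 73 with the most variable probe of each gene, 23 among genes above the median SD over arrays and 0 with no replicate block. With no replicate block, the difference between the lines enters the error of the siRNA change, so that setting could hardly yield a call. The cause of the other differences was not tested. Of the 14 members called between lines, 10 kept their call with no replicate block, 13 with robust moderation or among genes above the median SD, and all 14 with separate probes or the most variable probe. These last alternatives called 18 members each. With the most variable probe EPHA6 (1.62), NRP2 (1.36), NRP1 (0.39) and SEMA3E (-0.62) gained a call, and SEMA4F, not called either way, turned from -0.07 to 0.023. With separate probes NRP2 was called in both directions, 1 probe at 1.36 and another at -0.46. At 2-fold in place of 1.5-fold, 0 members remained in H520 and 1 in LK2. Between control arrays, 8 members passed 2-fold by the most variable probe and 11 passed 1.5-fold by the mean. Of 214 single-gene comparisons with an alternative, 205 kept their direction and side of the threshold. Many of these could not turn direction. Robust moderation, no block and the SD filter leave the change itself as it was. For genes with 1 probe, so does the most variable probe. With 1 array per group, no array could be left out of a test, and signal over background is unknown.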
